A study of Homo sapiens with 27 samples.

Results

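Mature microRNA (miRNA) levels were compared between induced iUSB1 hESCs and WT hESCs. The members were chosen by listing alone: all 1474 mature miRNAs that appear in the count tables of both groups, of 2067 listed in any hESC table. Of these, 1251 were listed in all 5 hESC tables, and the 998 of them that passed the filter on low counts were tested. The comparison asks how far the miRNA profile of cells given back USB1 lies from that of cells that never lost it.

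The study sequenced small RNA from 27 libraries in 9 groups of 3, and 6 of them form this comparison. All cells used here are H1, a long established line of human embryonic stem cells (hESCs). Induced cells (iUSB1 +Dox) carry the genotype given as USB1 mut, in the study a loss-of-function deletion of a single base made by CRISPR/Cas9. They also carry a transgene for wild-type USB1, placed at the AAVS1 safe harbour site under a doxycycline-inducible promoter. These cells were treated with doxycycline (Dox). WT cells are H1 with neither the mutation nor the transgene, and no Dox is given for them. Mutation, transgene, selection of edited colonies and Dox therefore differ together between the groups and cannot be told apart here. For some of the miRNAs described, values are also given in the same transgenic line without Dox (iUSB1 -Dox). For some they are given in the USB1 mutant without the transgene. The plots by library add the mutant with a short hairpin RNA against PAPD5, an enzyme that adds A tails. Small RNA sequencing does not read the USB1 mRNA, and whether Dox induced the transgene in these libraries was not analysed here. Cells were kept on Matrigel in a defined medium or on mouse feeder cells, and which of these applied to each library is not given in the sources used here. Separate cultures for the libraries of a group are not stated in the labels. The study's captions give 3 biological replicates for miRNA sequencing of WT and USB1 mutant hESCs, and do not cover the +Dox libraries. P-values measure only the spread between these libraries, which for +Dox may be technical.

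A miRNA is cut from a hairpin that can give a mature strand from its 5' arm (5p) and from its 3' arm (3p). It binds Argonaute and pairs with target mRNAs mainly through its seed, bases 2 to 8, so that miRNAs with one seed can share targets. USB1 is a 3' exonuclease known for trimming the tail of U6 snRNA, its loss causes the bone marrow failure syndrome poikiloderma with neutropenia, and it can take adenosines off miRNA 3' ends. Human pluripotent cells are known for the miR-302 and miR-371-373 clusters and for keeping mature let-7 low.

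The mature sequences of the miRNAs on which the comparison turns are given 5' to 3', from RefSeq on GRCh38.p14, with the seed in capitals. RefSeq held a sequence for 1313 of the 1474 members. The first set is shown because it holds the largest changes. It lists the 3p strands of the miR-371-373 cluster and, for comparison, miR-302b-3p and miR-520d-3p, which carry the seed of miR-372-3p and miR-373-3p but belong to other clusters.
miR-371b-3p: aAGUGCCCccacaguuugagugc
miR-371a-3p: aAGUGCCGccaucuuuugagugu
miR-372-3p: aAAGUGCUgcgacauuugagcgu
miR-373-3p: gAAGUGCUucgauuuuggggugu
miR-302b-3p: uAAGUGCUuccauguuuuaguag
miR-520d-3p: aAAGUGCUucucuuuggugggu

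The second set is shown because its members fell from neighbouring hairpins, or because both strands of one hairpin fell: miR-653 and miR-489 from an intron of CALCR, miR-30a, the let-7 strands and the chromosome 1 members of the miR-200 family. For let-7c-5p, from chromosome 21, neither reason holds, and it is printed because it is near-identical to let-7a-5p. miR-200a-3p, which was not called, has another seed than miR-429.
miR-653-5p: gUGUUGAAacaaucucuacug
miR-653-3p: uUCACUGGaguuuguuucaaua
miR-489-3p: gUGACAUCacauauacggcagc
miR-30a-5p: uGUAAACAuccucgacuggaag
miR-30a-3p: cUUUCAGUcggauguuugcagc
let-7a-5p: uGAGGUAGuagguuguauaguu
let-7c-5p: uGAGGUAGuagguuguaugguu
let-7a-3p: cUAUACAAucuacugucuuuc
miR-200b-3p: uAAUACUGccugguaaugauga
miR-429: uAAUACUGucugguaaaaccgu
miR-200a-3p: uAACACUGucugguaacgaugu

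The third set holds miRNAs that rose together from one host gene, TENM4 for miR-708 with miR-5579 and GABRA3 for miR-105 with miR-767, and the fourth holds 3 of the blood miRNAs followed by the study, of which miR-125a-5p and miR-125b-5p share a seed. The sequence of miR-199a-3p is also that of miR-199b-3p, so reads cannot be assigned to one of them by sequence.
miR-708-5p: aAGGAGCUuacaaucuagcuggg
miR-708-3p: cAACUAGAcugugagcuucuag
miR-5579-3p: uUAGCUUAaggaguaccagauc
miR-105-5p: uCAAAUGCucagacuccuguggu
miR-767-5p: uGCACCAUgguugucugagcaug
miR-125a-5p: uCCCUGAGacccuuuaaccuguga
miR-125b-5p: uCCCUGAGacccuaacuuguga
miR-199a-3p: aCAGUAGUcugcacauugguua

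Libraries held 14054485 to 18323281 miRNA counts in iUSB1 +Dox and 14709905 to 17359868 in WT, and the 10 most abundant miRNAs took 81.5 to 82.9% of them. Within groups, counts of pairs of libraries correlated at a Spearman rho of 0.945 to 0.976. WT library 1 stood apart: the chi-squared per degree of freedom between its counts and those of WT libraries 2 and 3 was 647 and 678, against 23.1 between libraries 2 and 3, and 61.6 to 237 among the +Dox libraries. The 18 listed miRNAs known from pluripotent cells, 17 of them tested, had a summed level of 429566 to 477714 CPM in iUSB1 +Dox and 435631 to 467153 CPM in WT. Levels are miRNA counts scaled to a common library size (CPM, as edgeR gives it) with TMM scaling, fold changes are log2 of iUSB1 +Dox over WT with their standard error (SE), and called means an edgeR adjusted p under 0.05 over all 998 miRNAs. CPM is used here to compare each miRNA between groups.

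Induced cells differed from WT in 82 miRNAs, more of them lower than higher. In iUSB1 +Dox, 22 miRNAs rose (2.20% of those tested) and 60 fell (6.01%), with a median log2 change of 1.07 among those that rose and -1.29 among those that fell. The shares of 2.20% and 6.01% are the background for the counts of calls by list given below. The median over all 998 was 0.03. The 5 most abundant miRNAs, miR-148a-3p, miR-302a-5p, miR-302b-3p, miR-302d-3p and miR-92a-3p, were not among them, with log2 changes of -0.29 to 0.33 and edgeR adjusted p of 0.224 to 0.913. In 79 of the 82 the 3 libraries of one group lay above all 3 of the other. Over all 998 miRNAs, the 3 +Dox libraries lay above all WT libraries in 15.1% and below them in 15.3%. The 3 called without such separation were miR-2682-5p, miR-1298-3p and miR-9-5p, each lost without +Dox library 1 or 2 and with only these groups. miR-2682-5p was also lost without WT library 1 (-1.56, against -2.53 with all libraries), miR-1298-3p and miR-9-5p without WT library 2 or 3, and miR-1298-3p without +Dox library 3 and with a replicate block.

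The number of calls leaned on single libraries. Without WT library 1 there were 57 calls, 13 higher and 44 lower, and 49 of the 82 were kept. Leaving out +Dox library 1, 2 or 3 gave 43, 25 and 52 calls. All 82 kept their sign without any one of the 6 libraries, and 25 kept their call, 20 that fell and 5 that rose.

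**Figure D1:**
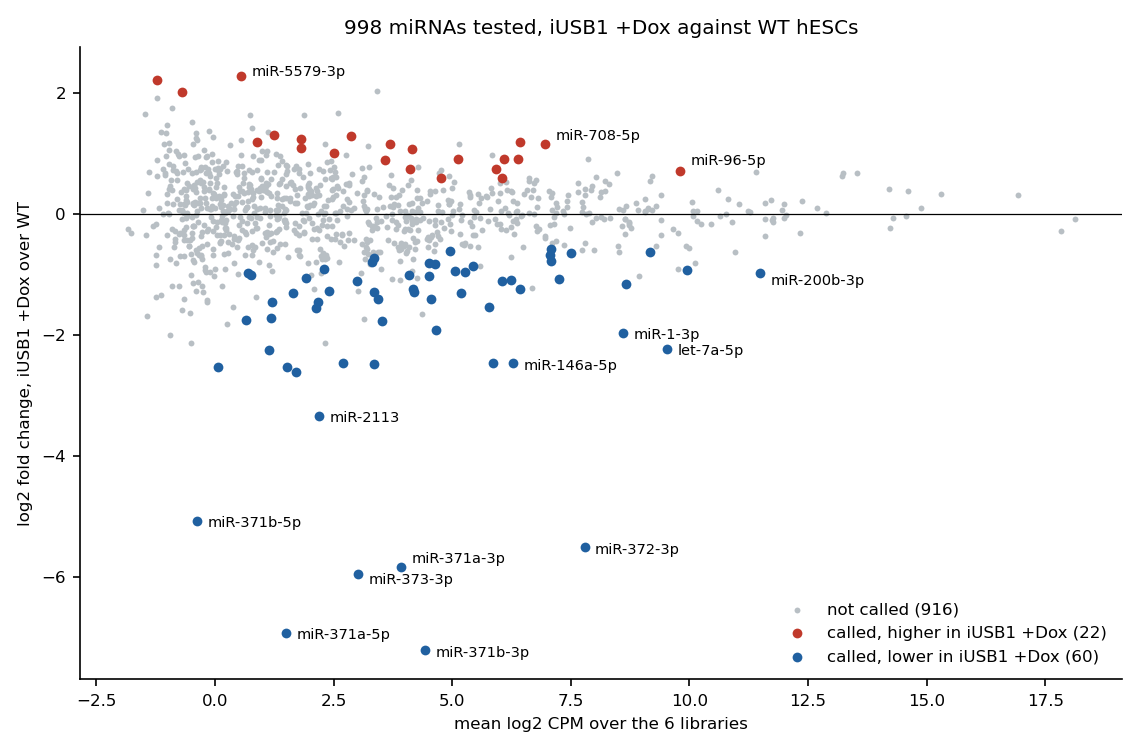
Each point is 1 of 998 miRNAs, with its mean log2 CPM over the 6 libraries on the horizontal axis and its log2 fold change (iUSB1 +Dox over WT) on the vertical axis. The 22 miRNAs called higher and the 60 called lower are coloured, and the points farthest from 0 are the miR-371-373 cluster, down to -7.21.

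The largest changes were in the miR-371-373 cluster, whose miRNAs are active in pluripotent cells and the placenta and promote the G1 to S transition. All 6 of its tested strands fell. The hairpins lie on chromosome 19, from MIR371A at chr19:53787675-53787741 and MIR371B on the opposite strand at chr19:53787677-53787742, through MIR372 at chr19:53787890-53787956, to MIR373 at chr19:53788705-53788773, with no host gene on the same strand in GENCODE 44. miR-371a and miR-371b are read from opposite strands of nearly the same bases. By sequence, miR-371b-3p is therefore complementary to miR-371a-5p, and miR-371b-5p to miR-371a-3p. Whether the alignment told reads of such complementary miRNAs apart was not tested, so the 6 falls may not be separate signals.

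miR-372-3p, the most abundant of them, had 50.1, 33.2 and 70.2 CPM in the 3 iUSB1 +Dox libraries, against 6180, 405 and 402 CPM in WT libraries 1, 2 and 3. The groups did not overlap, and WT library 1 was far above the other WT libraries. The log2 change was -5.51 (SE 1.03, edgeR adjusted p = 0.00825). miR-371b-3p had 4.91, 2.69 and 3.16 CPM in iUSB1 +Dox, against 1531, 36.5 and 38 CPM in WT. It showed the same high WT library and no overlap, with a log2 change of -7.21 (SE 1.47, edgeR adjusted p = 0.0127). miR-371a-3p had 3.55, 2.29 and 4.13 CPM in iUSB1 +Dox and 523, 24 and 25.1 CPM in WT (-5.84, SE 1.14, edgeR adjusted p = 0.00996). miR-373-3p, which shares the seed of miR-372-3p printed above, had 2.04, 1.05 and 1.73 CPM in iUSB1 +Dox and 271, 15.1 and 14.3 CPM in WT (-5.95, SE 1.15, edgeR adjusted p = 0.00996). The 5p strands miR-371a-5p (-6.92, edgeR adjusted p = 0.0222) and miR-371b-5p (-5.07, edgeR adjusted p = 0.0127) fell as well, at 0.526 and 0.154 CPM on average in iUSB1 +Dox.

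Both the size of this fall and its call depended on which libraries were used. Without WT library 1 the list's median log2 change was -2.93 in place of -5.89, and 5 of the 6 were still called, miR-371b-5p having an edgeR adjusted p of 0.0654. Without that library, miR-372-3p changed by -2.98, miR-373-3p by -3.18, miR-371a-3p by -2.88, miR-371b-3p by -3.36 and miR-371a-5p by -2.68. Without +Dox library 2 none of the 6 was called, at edgeR adjusted p of 0.058 to 0.117. The calls of miR-371b-3p, miR-371a-5p and miR-371b-5p were also lost without +Dox library 1, and the first 2 of these without +Dox library 3. DESeq2, which withholds a p where 1 library is an outlier for its group, gave none for 5 of the 6, with miR-371b-5p called. With only these 2 groups in the fit, 5 of the 6 had edgeR adjusted p of 0.113 to 0.165, and with a replicate block miR-371a-5p had 0.0586. Over all settings run, adjusted p ranged over 1.96e-05 to 0.113 for miR-372-3p, 6.06e-05 to 0.119 for miR-373-3p, 9.47e-06 to 0.125 for miR-371a-3p, 0.000233 to 0.127 for miR-371b-3p, 0.00388 to 0.165 for miR-371a-5p and 8.94e-06 to 0.0741 for miR-371b-5p.

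For miR-372-3p, the means of iUSB1 -Dox and of the USB1 mutant lay between those of induced and WT cells. It averaged 51.2 ± 18.5 CPM in iUSB1 +Dox, 169 ± 51.8 CPM in iUSB1 -Dox, 155 ± 25 CPM in the USB1 mutant and 2329 ± 3335 CPM in WT (SD, n = 3 each). It was lowest with Dox, but the log2 differences of iUSB1 +Dox from iUSB1 -Dox (-1.73, SE 0.87, edgeR adjusted p = 0.994) and from the mutant (-1.60, SE 0.87, edgeR adjusted p = 0.485) did not pass the test. miR-371a-3p averaged 3.33 ± 0.939 CPM in iUSB1 +Dox and 11.6 ± 2.72 CPM in iUSB1 -Dox. This difference was called only when those 2 groups were fitted alone (-1.81, edgeR adjusted p = 0.012), and not with all groups in the fit (-1.80, edgeR adjusted p = 0.994).

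**Figure D2:**
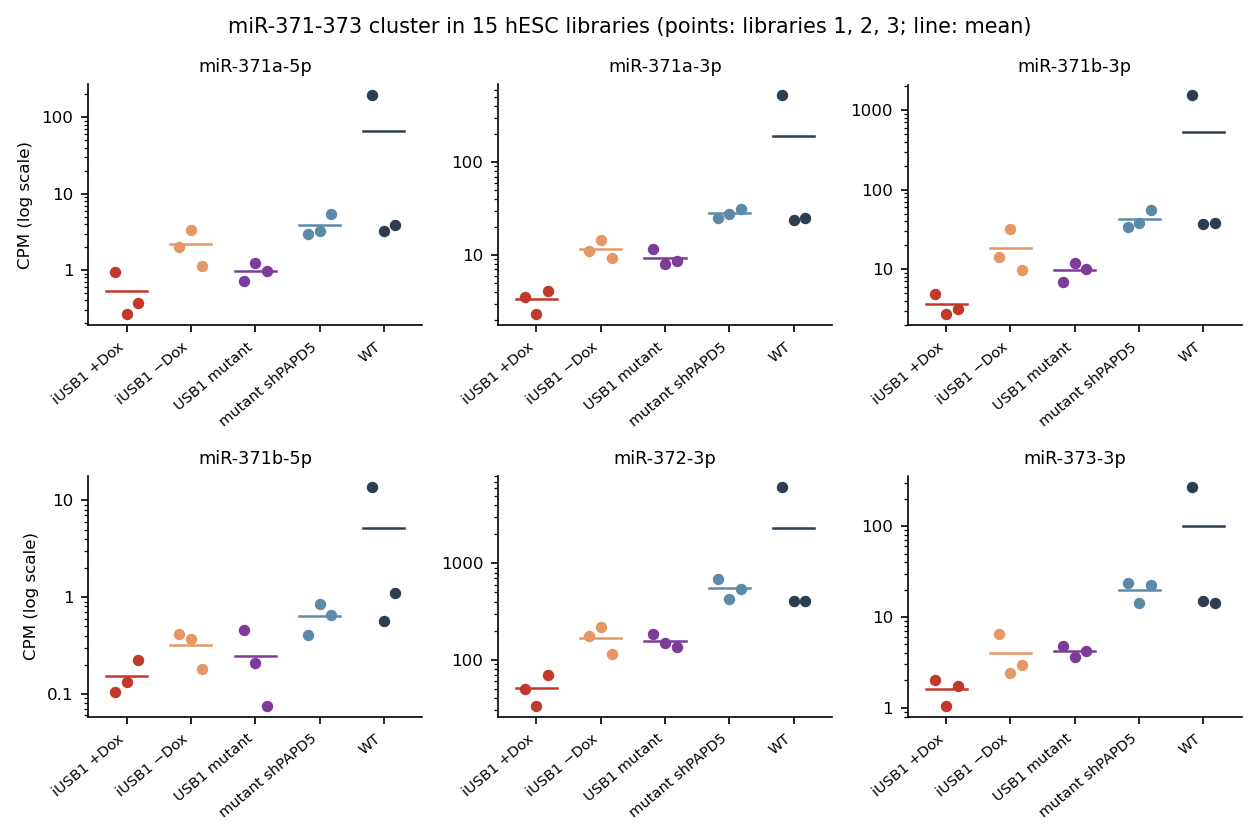
Points are the CPM of each library, on a log axis, for the miRNAs of the miR-371-373 cluster in the 5 hESC groups, and bars mark the mean of 3 libraries. For miR-372-3p the +Dox libraries lie at 33.2 to 70.2 CPM, and WT library 1, at 6180 CPM, lies above WT libraries 2 and 3, at 405 and 402 CPM.

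The other pluripotency cluster, with miR-302 and miR-367 on chromosome 4, gave no call. By edgeR 0 of its 10 tested strands were called (0 at an unadjusted p under 0.05 and 0 by DESeq2), with a median log2 change of 0.32. miR-302b-3p had 115468, 137236 and 167231 CPM in iUSB1 +Dox, against 100354, 119725 and 118109 CPM in WT. The groups overlapped, and the log2 change was 0.31 (SE 0.16, edgeR adjusted p = 0.27, interval -0.03 to 0.65). Of the 12 tested miRNAs with the seed AAGUGCU, the 5 of the miR-302 family had log2 changes of 0.31 to 0.42, miR-372-3p and miR-373-3p fell, and of the 5 from the C19MC cluster only miR-520d-3p fell (-0.62, SE 0.18, edgeR adjusted p = 0.0477). That call was lost without any one of the 6 libraries (adjusted p = 0.0519 to 0.169), with library totals, without a filter, with only these groups and with a replicate block (0.0546), over a range of 0.011 to 0.169 across settings. Summed over the list, this cluster held 429454 to 477590 CPM in iUSB1 +Dox and 435110 to 458404 CPM in WT.

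The C19MC cluster, a primate-specific run of hairpins beside the miR-371-373 cluster that is active in placenta and in naive pluripotent cells, held 7 of the 60 miRNAs that fell. Of 59 tested members, 7 fell and 0 rose, 56 had a log2 change below 0, and the median was -0.53 against 0.03 over all miRNAs. At an unadjusted p under 0.05 there were 30 of the 59, against 232 of all 998, and DESeq2 called 18, against 115 of all 998. The summed level was 2643 to 2925 CPM in iUSB1 +Dox, against 3634 to 4440 CPM in WT, without overlap. miR-516a-5p had 28.5, 25.9 and 29.4 CPM in iUSB1 +Dox and 71.3, 43.7 and 48.5 CPM in WT (-0.97, SE 0.21, edgeR adjusted p = 0.0082). miR-522-3p had 34.1, 28.9 and 35.5 CPM in iUSB1 +Dox and 82.6, 44.2 and 52.6 CPM in WT (-0.87, SE 0.22, edgeR adjusted p = 0.0209). Both were highest in WT library 1. miR-517a-3p (-0.67, edgeR adjusted p = 0.0256) and miR-517b-3p (-0.77, edgeR adjusted p = 0.0146) have one identical sequence, as have miR-518d-5p (-0.73, edgeR adjusted p = 0.0383) and miR-526a-5p (-0.80, edgeR adjusted p = 0.0222), so each pair is 1 signal rather than 2. The sequence of the second pair is also that of miR-520c-5p, which was not called (-0.67, SE 0.21, edgeR adjusted p = 0.0617) and passed with DESeq2 only (0.0157, over a range of 0.0157 to 0.265).

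The most abundant members were not called. miR-516b-5p had 737, 781 and 904 CPM in iUSB1 +Dox, against 1208, 1083 and 1211 CPM in WT, with no overlap (-0.53, SE 0.17, edgeR adjusted p = 0.0626). It passed the test with DESeq2, library totals, only these groups or a replicate block (0.0365), over a range of 0.0227 to 0.21. miR-512-3p had 677, 566 and 548 CPM in iUSB1 +Dox and 758, 755 and 770 CPM in WT (-0.35, edgeR adjusted p = 0.192). Without WT library 1 only 1 of the 59 was called and the median was -0.37. Without +Dox library 2 none was called by edgeR and the median was -0.48. miR-516a-5p lost its call without +Dox library 2 alone (0.0554), and miR-522-3p without +Dox library 1, +Dox library 2 or WT library 1 (0.0536 to 0.113) and with only these groups (0.0597). Without WT library 1 miR-522-3p changed by -0.56. The other 4 named as called lost it without +Dox library 2 (0.0912 to 0.156), +Dox library 3 (0.0629 to 0.123) and WT library 1 (0.0629 to 0.138), with ranges over all settings of 0.00372 to 0.121 for miR-517a-3p, 0.00115 to 0.0912 for miR-517b-3p, 0.00614 to 0.156 for miR-518d-5p and 0.00164 to 0.12 for miR-526a-5p. miR-518d-5p and miR-526a-5p also lost it without +Dox library 1 (0.053 and 0.0584) or WT library 2 (0.0533 and 0.0519), and miR-518d-5p without WT library 3 (0.0597). Library totals ended the calls of miR-517a-3p, miR-517b-3p and miR-518d-5p, and for miR-518d-5p so did no filter or only these groups. miR-516a-5p ranged over 0.00018 to 0.0554 and miR-522-3p over 0.0028 to 0.113.

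miR-653 and miR-489, which lie on chromosome 7 in an intron of CALCR, the gene of the calcitonin receptor, fell together. miR-489 is known to hold muscle stem cells in quiescence in mice. Their mature strands lie between chr7:93482784 and 93483968. miR-653-5p had 29.9, 22.2 and 26.4 CPM in iUSB1 +Dox, against 241, 91.6 and 99.4 CPM in WT. All WT libraries were above all induced libraries, with WT library 1 the highest. The log2 changes of miR-653-5p (-2.46, SE 0.34), miR-653-3p (-2.49, SE 0.34) and miR-489-3p (-2.46, SE 0.38) were nearly equal, each with an edgeR adjusted p of 0.000865. All 3 kept their calls without any one library (adjusted p up to 0.0124). Without WT library 1 they changed by -1.86, -1.91 and -1.84. miR-653-5p averaged 26.2 ± 3.84 CPM in iUSB1 +Dox, 34.6 ± 10 CPM in iUSB1 -Dox, 35.3 ± 10.4 CPM in the mutant and 144 ± 83.9 CPM in WT (SD, n = 3 each), and the differences of iUSB1 +Dox from -Dox (-0.40) and from the mutant (-0.43) were not called (edgeR adjusted p = 0.994 and 0.625).

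let-7 miRNAs repress LIN28 and other genes of immature cells, and their maturation is held back by LIN28 in pluripotent cells. Of 12 tested members of the family 3 fell and 0 rose, with a median log2 change of -0.44. The median was -0.73 without WT library 1, where 4 fell, and -0.15 without WT library 3, where 1 fell. let-7a-5p, the most abundant, had 374, 344 and 354 CPM in iUSB1 +Dox, against 801, 1822 and 2404 CPM in WT. Here WT library 1 was the lowest of its group, and still above every induced library. The log2 change was -2.23 (SE 0.35, edgeR adjusted p = 0.0012), and the call was kept without any one library, with -2.56 without WT library 1. let-7c-5p had 17, 13 and 9.92 CPM in iUSB1 +Dox and 34.4, 57.1 and 60.6 CPM in WT (-1.93, SE 0.46, edgeR adjusted p = 0.0187). let-7a-3p, the other strand of 2 of the let-7a hairpins, had 5.54, 7.47 and 6.54 CPM in iUSB1 +Dox and 10.2, 27.3 and 29.3 CPM in WT (-1.77, SE 0.44, edgeR adjusted p = 0.0209). let-7c-5p was not called without +Dox library 2 or 3 or WT library 2 or 3 (0.0519 to 0.0926), nor let-7a-3p without any of these or +Dox library 1 (0.0701 to 0.0981), over ranges of 0.00034 to 0.0926 and 0.00116 to 0.0981.

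Members of the family with the same seed did not move alike in size. let-7f-5p had 98.3, 106 and 116 CPM in iUSB1 +Dox and 82.3, 123 and 175 CPM in WT, with overlap (-0.25, SE 0.28, edgeR adjusted p = 0.65). let-7i-5p had 102, 113 and 119 CPM in iUSB1 +Dox and 51.6, 97.1 and 106 CPM in WT (0.39, SE 0.25, edgeR adjusted p = 0.382). let-7b-5p, beside MIRLET7A3 on chromosome 22, gave -0.63 and let-7b-3p -1.46, neither called (edgeR adjusted p = 0.397 and 0.196). let-7b-3p passed without WT library 1 (0.0463, over a range of 0.0463 to 0.478). let-7a-5p and let-7c-5p are near-identical, as printed above, and how the alignment shared reads between such neighbours was not tested. let-7a-5p is encoded at MIRLET7A1 (chr9:94175957-94176036), MIRLET7A2 (chr11:122146522-122146593) and MIRLET7A3 (chr22:46112749-46112822), and its counts cannot be split by copy. let-7a-5p averaged 358 ± 15.4 CPM in iUSB1 +Dox, 673 ± 117 CPM in iUSB1 -Dox, 622 ± 249 CPM in the mutant and 1676 ± 812 CPM in WT (SD, n = 3 each). Its log2 difference of iUSB1 +Dox from -Dox was -0.91 (SE 0.34, edgeR adjusted p = 0.994) with all groups in the fit, and it was called when the 2 groups were fitted alone (-0.92, edgeR adjusted p = 0.0161).

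The MIR100HG transcript on chromosome 11 carries miR-100, MIRLET7A2 and miR-125b-1, and its mature miRNAs did not change together. miR-100-5p had 146, 137 and 170 CPM in iUSB1 +Dox, against 89.9, 173 and 186 CPM in WT, with the induced libraries inside the WT range (0.01, SE 0.22, edgeR adjusted p = 0.978). miR-125b-5p had 16.4, 18.2 and 21.7 CPM in iUSB1 +Dox, against 44.6, 28.7 and 26.8 CPM in WT, without overlap (-0.83, SE 0.22, edgeR adjusted p = 0.0254). miR-125b-1-3p, the strand that tells this copy from the one on chromosome 21, gave 0.01 (SE 0.29, edgeR adjusted p = 0.982). miR-125b-2-3p, from the chromosome 21 copy in MIR99AHG, which also holds let-7c, had 1.72, 1.05 and 1.2 CPM in iUSB1 +Dox and 3.85, 2.78 and 4.37 CPM in WT (-1.45, SE 0.43, edgeR adjusted p = 0.0477). That call was lost without any one of the 6 libraries (0.057 to 0.207), and with a replicate block (0.0514), library totals or no filter, over a range of 0.0151 to 0.207. In the whole list of the miR-10, miR-99 and miR-100 families with miR-125a and miR-125b, 2 of 11 fell and 0 rose, with a median of 0.01, and between -0.09 (without +Dox library 3) and 0.03 (without +Dox library 1) when 1 library was left out.

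The study followed 5 miRNAs for their part in blood formation, and 4 of them could be tested here. Of these 2 fell in iUSB1 +Dox relative to WT, 0 rose, and the median log2 change was -1.06. The study chose these miRNAs as lower in USB1 mutant cells, so the list is not independent evidence of a direction. By qRT-PCR in undifferentiated hESCs and hematopoietic progenitors, the study reported that Dox-induced USB1 restored their levels. That assay differs from the sequencing used here, and progenitors were not part of this comparison. miR-125b-5p, a repressor of p53 known for its part in blood stem cells, lost its call without +Dox library 1 (0.116), +Dox library 2 (0.119) or WT library 1 (0.142), with only these groups (0.0639) and with library totals (0.0574), over a range of 0.0044 to 0.142. miR-199a-3p had 13.7, 10.4 and 11.4 CPM in iUSB1 +Dox, against 40.1, 21.6 and 25.5 CPM in WT. The groups did not overlap, and the log2 change was -1.29 (SE 0.24, edgeR adjusted p = 0.00279), kept without any one library. miR-125a-5p, with 196, 254 and 261 CPM in iUSB1 +Dox and 257, 234 and 213 CPM in WT, overlapped fully (0.01, SE 0.19, edgeR adjusted p = 0.973, interval -0.39 to 0.41).

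miR-142-5p, a miRNA of blood cells, was close to the detection limit. It had 0.418, 0.459 and 1.13 CPM in iUSB1 +Dox and 4.5, 1.14 and 1.24 CPM in WT (-1.83, SE 0.61, edgeR adjusted p = 0.0805), and it passed the test with DESeq2 alone (0.0334, over a range of 0.0334 to 0.47). miR-223-3p, the granulocyte miRNA, had 6, 4 and 5 counts in iUSB1 +Dox and 4, 5 and 2 in WT and was not tested. Set beside the USB1 mutant, miR-125a-5p averaged 237 ± 35.4 CPM in iUSB1 +Dox and 189 ± 24.4 CPM in the mutant, a log2 difference of 0.32, and miR-125b-5p 18.8 ± 2.72 and 15.8 ± 0.658 CPM, a difference of 0.25. miR-199a-3p averaged 11.9 ± 1.7 CPM in iUSB1 +Dox and 13.8 ± 1.56 CPM in the mutant (-0.22), and miR-142-5p 0.668 ± 0.398 and 0.859 ± 0.524 CPM (-0.48; SD, n = 3 each). None of the 4 differences was called by edgeR (adjusted p = 0.505 to 0.781). Of the 5 opposite strands tested 1 fell, miR-125b-2-3p, with a list median of -0.28. None of the 5 was called when any 1 library was left out, and the median was then between -0.94, without +Dox library 3, and 0.0084, without +Dox library 2 (-0.45 without WT library 1). miR-125a-3p (0.13), miR-142-3p (-1.42) and miR-199a-5p (-0.28) were not called (edgeR adjusted p = 0.27 to 0.826).

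**Figure D3:**
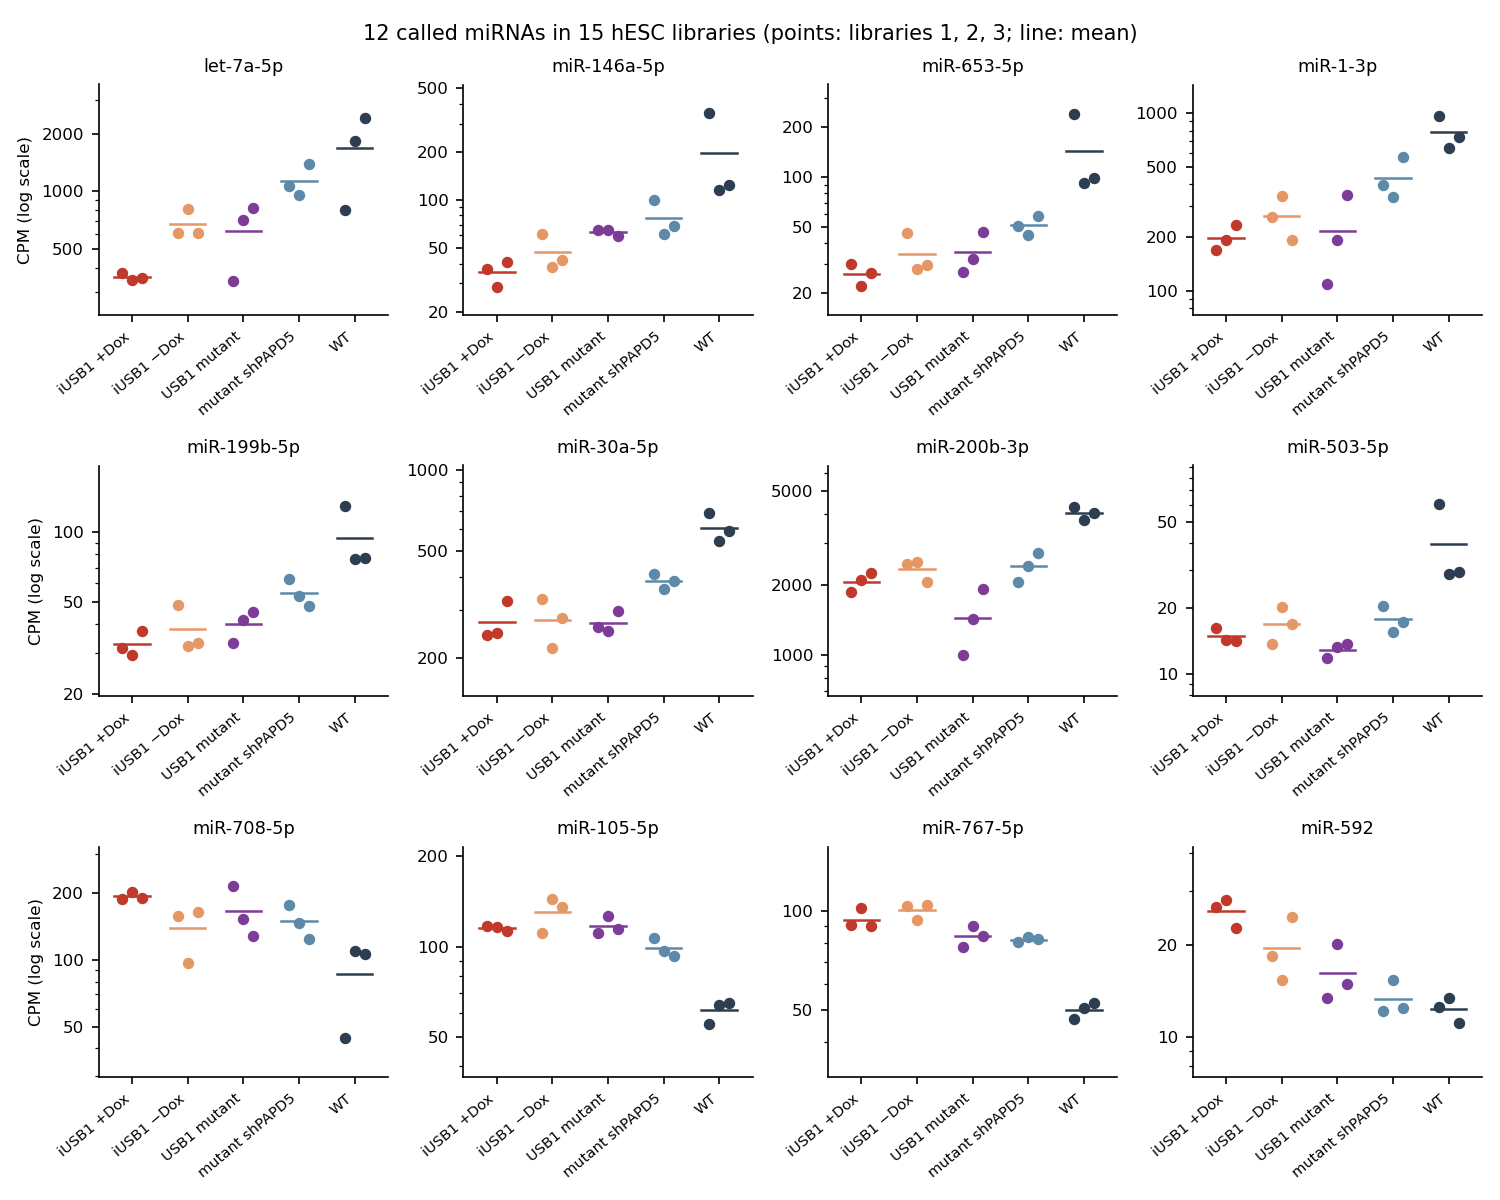
Points are the CPM of each library, on a log axis, in the 5 hESC groups, and bars mark the mean of 3 libraries. The iUSB1 +Dox libraries lie at 344 to 374 CPM for let-7a-5p, against 801 to 2404 CPM in WT, and at 112 to 117 CPM for miR-105-5p, against 55.4 to 64.9 CPM in WT.

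In a wider list of blood lineage miRNAs, 5 of 21 tested fell, against 6.01% of all miRNAs tested, and 0 rose. This list is not separate from the followed miRNAs, as it also holds miR-223-3p, which was not tested. The median log2 change was -0.22, and -0.38 without WT library 3. Without +Dox library 1 or 2 only 2 fell, and without WT library 1 3 fell. miR-146a-5p, which restrains signalling downstream of Toll-like receptors, had 36.8, 28.7 and 41.1 CPM in iUSB1 +Dox, against 351, 115 and 124 CPM in WT. The groups were far apart and WT library 1 was the highest (-2.47, SE 0.37, edgeR adjusted p = 0.000865), with -1.75 without that library. miR-486-5p, an erythroid miRNA that is also made in muscle, had 99.2, 84 and 136 CPM in iUSB1 +Dox and 202, 241 and 231 CPM in WT (-1.08, SE 0.26, edgeR adjusted p = 0.0146). miR-486-3p had 24.5, 18.2 and 26.6 CPM in iUSB1 +Dox and 56.5, 54.2 and 61.2 CPM in WT (-1.31, SE 0.20, edgeR adjusted p = 0.000865). Neither strand overlapped between groups, and WT library 1 was not the highest for miR-486-5p. The 5p call was lost without +Dox library 1 (0.0631) or 2 (0.103), over a range of 0.00165 to 0.103, and the 3p call was kept without any one library.

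miR-150-5p, a lymphocyte miRNA, had 1.62, 1.64 and 2.7 CPM in iUSB1 +Dox and 7.11, 3.42 and 4.08 CPM in WT (-1.31, SE 0.33, edgeR adjusted p = 0.0209). miR-181b-5p had 1.88, 3.93 and 4.81 CPM in iUSB1 +Dox and 11.9, 5.76 and 7.8 CPM in WT (-1.27, SE 0.37, edgeR adjusted p = 0.0443). Both were lost without +Dox library 1, +Dox library 2 or WT library 1 (0.1 to 0.177), miR-181b-5p also without WT library 3 (0.0715), with library totals and with a replicate block (0.0587), and both with only these groups (0.0618 and 0.0854). The ranges over all settings were 0.00296 to 0.118 and 0.0109 to 0.177. The most abundant of the list, miR-221-3p (3999 ± 138 CPM in iUSB1 +Dox, 4181 ± 268 CPM in WT) and miR-222-3p (3676 ± 375 CPM in iUSB1 +Dox, 3146 ± 109 CPM in WT, SD, n = 3 each), were not called. Of the 8 blood markers the defining miR-223-3p and miR-144-3p had at most 10 counts in every library. The sum over the 8 markers was 8.57 to 28.9 CPM in iUSB1 +Dox and 11.2 to 20.8 CPM in WT. miR-451a, another of these markers, had 82, 95 and 290 counts in iUSB1 +Dox and 78, 70 and 107 in WT, and was not called.

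Among markers of muscle and of neural cells, miR-1-3p, miR-133a-3p and miR-9-5p fell, and the others tested were not called. miR-1-3p, the miRNA of striated muscle, had 169, 193 and 236 CPM in iUSB1 +Dox, against 969, 634 and 738 CPM in WT. Every WT library was above every induced library (-1.97, SE 0.35, edgeR adjusted p = 0.00226), and the call was kept without any one library. miR-133a-3p, its neighbour on chromosomes 18 and 20, had 2.3, 2.1 and 3.91 CPM in iUSB1 +Dox and 11.2, 6.64 and 4.81 CPM in WT (-1.46, SE 0.42, edgeR adjusted p = 0.0418). This call was lost without +Dox library 1 (0.141) or 2 (0.188), WT library 1 (0.181) or 2 (0.0638), with only these groups (0.0533) and with library totals (0.0579), over a range of 0.0102 to 0.188. The 5 muscle markers, of which 3 were tested, summed to 173 to 243 CPM in iUSB1 +Dox and 643 to 982 CPM in WT. Nearly all of it was miR-1-3p, with miR-133a-5p and miR-133b at most at 10 counts. miR-206, also tested, had 26, 31 and 45 counts in iUSB1 +Dox and 31, 24 and 26 in WT (0.39, not called). In bulk RNA, fewer cells that make a miRNA and less of it per cell cannot be told apart.

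miR-9-5p, a neural miRNA, had 762, 620 and 837 CPM in iUSB1 +Dox, against 834, 1683 and 1708 CPM in WT. WT library 1 lay inside the induced range, so the groups overlapped (-0.93, SE 0.24, edgeR adjusted p = 0.0241). The call was lost without +Dox library 1 (0.0747) or 2 (0.128), WT library 2 (0.0985) or 3 (0.0898) and with only these groups (0.0826), over a range of 0.00158 to 0.128. The 4 neural markers summed to 697 to 931 CPM in iUSB1 +Dox and 929 to 1828 CPM in WT. miR-124-3p had 294, 190 and 191 counts in iUSB1 +Dox and 270, 202 and 156 in WT. miR-124-5p had 731, 553 and 530 counts in iUSB1 +Dox and 707, 509 and 430 in WT. Neither these nor miR-9-3p (-0.86) was called. The 5 endoderm markers, with 0 calls, summed to 694 to 752 CPM in iUSB1 +Dox and 385 to 795 CPM in WT. Over the list of muscle and germ layer miRNAs 3 of 12 fell and 0 rose, with a median of 0.08. The median was -0.09 without WT library 1, 0.13 without WT library 2, with 1 call, and -0.04 without +Dox library 3, and 1 was called without +Dox library 1 or 2. Whether these cells took part in the other changes was not tested.

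Of 9 tested fibroblast miRNAs 3 fell and 0 rose, with a median of -0.49, and all 3 are of the miR-199 family. The median was -0.09 without WT library 1, with 2 calls, -0.30 without +Dox library 1 and -0.94 without +Dox library 3. miR-199b-5p had 31.6, 29.3 and 37.3 CPM in iUSB1 +Dox, against 129, 76.7 and 77.5 CPM in WT, with no overlap (-1.53, SE 0.23, edgeR adjusted p = 0.000865, kept without any one library). miR-199b-3p (-1.24, SE 0.27, edgeR adjusted p = 0.00996) is the same sequence as miR-199a-3p and was not called without +Dox library 2 (0.0741) or WT library 1 (0.0611), over a range of 0.00055 to 0.0741. miR-143-3p, another mesenchymal miRNA, had 202, 251 and 601 CPM in iUSB1 +Dox and 338, 163 and 193 CPM in WT, with overlap (0.60, SE 0.48, edgeR adjusted p = 0.497). Without miR-21, which many cells make, the fibroblast markers summed to 275 to 689 CPM in iUSB1 +Dox and 301 to 588 CPM in WT, and miR-143-5p had at most 10 counts. The part of feeder or other fibroblast RNA in the miR-199 values was not tested.

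miR-30a and miR-30c-2 lie in LINC00472 on chromosome 6, the first in an intron and the other in an exon, and their strands fell by close to the same factor. miR-30a-5p had 244, 247 and 324 CPM in iUSB1 +Dox, against 691, 543 and 593 CPM in WT (-1.16, SE 0.18, edgeR adjusted p = 0.000865). miR-30a-3p had 59.9, 56.3 and 53.6 CPM in iUSB1 +Dox and 153, 114 and 133 CPM in WT (-1.24, SE 0.20, edgeR adjusted p = 0.0012). Neither overlapped, and both were kept without any one library. miR-30c-2-3p gave -1.28 (SE 0.33, edgeR adjusted p = 0.0222), lost without +Dox library 1, 2 or 3 or WT library 1 (0.0575 to 0.124), over a range of 0.00283 to 0.124. miR-30c-5p, which miR-30c-1 on another chromosome also makes, had 2418, 2562 and 2401 CPM in iUSB1 +Dox and 1974, 2505 and 2629 CPM in WT (0.05, SE 0.16, edgeR adjusted p = 0.89). Of 15 tested miR-29 and miR-30 strands these 3 fell and 0 rose, with a median of -0.21.

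The miR-200 family, which keeps cells epithelial by repressing ZEB1 and ZEB2, was lower in its chromosome 1 cluster. miR-200b-3p had 1862, 2083 and 2231 CPM in iUSB1 +Dox, against 4304, 3790 and 4041 CPM in WT (-0.97, SE 0.20, edgeR adjusted p = 0.00553). miR-429, with the same seed, had 141, 143 and 150 CPM in iUSB1 +Dox and 220, 236 and 224 CPM in WT (-0.65, SE 0.14, edgeR adjusted p = 0.0103). The spread within each group was small beside the gap between them. miR-200b-3p kept its call without any one library, while miR-429 lost it without +Dox library 1 (0.053) or 2 (0.061), over a range of 2.64e-05 to 0.061. miR-200b-5p also fell (-1.01, SE 0.29, edgeR adjusted p = 0.038), and was lost without +Dox library 1, 2 or 3 or WT library 1 or 2 (0.0552 to 0.142), over a range of 0.00899 to 0.142.

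miR-200a-3p, from the hairpin between them, had 216, 192 and 215 CPM in iUSB1 +Dox and 333, 316 and 294 CPM in WT. It separated the groups but was not called (-0.60, SE 0.18, edgeR adjusted p = 0.0558), and it passed with DESeq2, the stricter filter, only these groups or a replicate block (0.0303), over a range of 0.0227 to 0.208. miR-200c-3p, from the cluster on chromosome 12 with miR-141, had 2501, 2660 and 3024 CPM in iUSB1 +Dox and 3466, 3476 and 3565 CPM in WT (-0.36, SE 0.13, edgeR adjusted p = 0.0936). It passed with DESeq2 only (0.00803, over a range of 0.00803 to 0.262). In all, 3 of 9 tested strands of the family fell and 0 rose, with a median of -0.60. miR-200b-3p averaged 2058 ± 186 CPM in iUSB1 +Dox, 2326 ± 245 CPM in iUSB1 -Dox, 1446 ± 452 CPM in the mutant and 4045 ± 257 CPM in WT (SD, n = 3 each).

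miR-503 and miR-424, of the miR-16 group that slows the cell cycle, lie in a cluster on the X chromosome with miR-450 and miR-542. miR-503-5p had 16.2, 14.3 and 14.1 CPM in iUSB1 +Dox, against 60.7, 28.7 and 29.5 CPM in WT, with WT library 1 the highest and no overlap (-1.41, SE 0.26, edgeR adjusted p = 0.00278, kept without any one library). miR-424-5p (-1.75, SE 0.41, edgeR adjusted p = 0.013) and miR-424-3p (-1.10, SE 0.32, edgeR adjusted p = 0.0445) fell too, at 0.809 and 5.58 CPM on average in iUSB1 +Dox. miR-424-5p was lost without +Dox library 2 (0.0912) or WT library 1 (0.0611), over a range of 0.0011 to 0.0912. miR-424-3p was lost without any +Dox library (0.104 to 0.141) or WT library 1 (0.265), with only these groups (0.0797) and with a replicate block (0.053), over a range of 0.012 to 0.265, and without WT library 1 it changed by -0.63. miR-450b-5p had 41.5, 33.7 and 40.2 CPM in iUSB1 +Dox and 59.1, 54.6 and 54.1 CPM in WT, separate but not called (-0.54, edgeR adjusted p = 0.0692). It passed with DESeq2 only (0.0153, over a range of 0.0153 to 0.253). All 7 tested strands of the cluster had log2 changes below 0, with a median of -1.10, and without WT library 1 the median was -0.67 with 1 call. miR-16-5p itself, at 253 ± 13.6 CPM in iUSB1 +Dox and 267 ± 17.1 CPM in WT (SD, n = 3 each), gave -0.08, and edgeR called 0 of 9 tested strands of the miR-15 and miR-16 family (2 at an unadjusted p under 0.05 and 0 by DESeq2), with a median of 0.03, and of -0.03 without WT library 1 to 0.09 without WT library 3.

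miR-34 miRNAs are transcribed under p53. miR-34c-5p had 46.8, 48.6 and 61.7 CPM in iUSB1 +Dox, against 125, 97.1 and 112 CPM in WT, without overlap (-1.09, SE 0.22, edgeR adjusted p = 0.00553). miR-34b-3p, from the same transcript on chromosome 11, had 6.69, 5.64 and 7.44 CPM in iUSB1 +Dox and 19.8, 15 and 17.7 CPM in WT (-1.41, SE 0.22, edgeR adjusted p = 0.000865). Both kept their calls without any one library. miR-34a-5p, from chromosome 1, had 106, 85.8 and 117 CPM in iUSB1 +Dox and 89.6, 134 and 132 CPM in WT, with overlap (-0.20, SE 0.26, edgeR adjusted p = 0.687). Of 9 tested miRNAs induced by p53, 2 fell and 0 rose, with a median of -0.20. The median was -0.37 without WT library 1, -0.31 without +Dox library 3, and -0.10 without WT library 2 or +Dox library 2, with 2 calls each time. miR-34b-3p averaged 6.59 ± 0.904 CPM in iUSB1 +Dox, 9.85 ± 0.329 CPM in iUSB1 -Dox, 11.7 ± 3.25 CPM in the mutant and 17.5 ± 2.41 CPM in WT (SD, n = 3 each). Its log2 difference of iUSB1 +Dox from the mutant was -0.83 (SE 0.22), not called by edgeR (adjusted p = 0.213) and called by DESeq2 (-0.83, adjusted p = 0.0485).

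The miRNAs that rose were fewer and changed less. miR-708, in an intron of the teneurin gene TENM4 on chromosome 11, rose in both strands. miR-708-5p had 188, 202 and 191 CPM in iUSB1 +Dox, against 44.6, 110 and 106 CPM in WT (1.16, SE 0.30, edgeR adjusted p = 0.0222). miR-708-3p had 140, 139 and 127 CPM in iUSB1 +Dox and 30.2, 78.1 and 70.3 CPM in WT (1.19, SE 0.26, edgeR adjusted p = 0.00996). The induced libraries were close together, and WT library 1 was the lowest. miR-5579-3p, also from an intron of TENM4, had 3.29, 3.61 and 3.08 CPM in iUSB1 +Dox and 0.108, 0.633 and 1.38 CPM in WT (2.28, SE 0.52, edgeR adjusted p = 0.0127). Without WT library 1 the changes of miR-708-5p and miR-708-3p were 0.85 (edgeR adjusted p = 0.0531) and 0.87, and without WT library 3 that of miR-5579-3p was 3.16. None of the 3 was called without +Dox library 2 (0.0561 to 0.0946) or with only these groups (0.0533 to 0.0691), and miR-708-5p was also lost without +Dox library 1 (0.0584) or 3 (0.0629), over ranges of 0.00722 to 0.0946 for miR-708-5p, 0.00115 to 0.0691 for miR-708-3p and 0.000317 to 0.058 for miR-5579-3p.

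miR-105 and miR-767, which lie in introns of GABRA3 on the X chromosome and are known from germ cells and tumours, rose in their 5p strands. miR-105-5p had 117, 117 and 112 CPM in iUSB1 +Dox, against 55.4, 64.2 and 64.9 CPM in WT (0.91, SE 0.15, edgeR adjusted p = 0.00143). miR-767-5p had 90.3, 102 and 89.9 CPM in iUSB1 +Dox and 47.2, 50.7 and 52.6 CPM in WT (0.91, SE 0.14, edgeR adjusted p = 0.00103). Both groups were tight and did not overlap, and both calls were kept without any one library. The 3p strands differed: miR-105-3p had 5.96, 4.39 and 4.51 CPM in iUSB1 +Dox and 3.47, 2.97 and 2.84 CPM in WT (0.68, SE 0.23, edgeR adjusted p = 0.0805), and miR-767-3p 7.73, 6.56 and 6.01 CPM in iUSB1 +Dox and 7.32, 7.28 and 6.2 CPM in WT (-0.03, SE 0.22, edgeR adjusted p = 0.942). miR-105-3p passed with DESeq2 only (0.0441, over a range of 0.0441 to 0.252). With the miR-452 and miR-224 strands, also from the X chromosome, 2 of 7 rose and 0 fell, with a median of 0.31 and, without WT library 1, of 0.01, without WT library 2 of 0.54 and without WT library 3 of 0.58. miR-105-5p averaged 115 ± 2.62 CPM in iUSB1 +Dox, 130 ± 16.7 CPM in iUSB1 -Dox, 117 ± 8.23 CPM in the mutant and 61.5 ± 5.31 CPM in WT (SD, n = 3 each).

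The other miRNAs that rose and kept their calls without any one library were miR-592, miR-550a-5p and miR-548ao-3p. miR-592, in an intron of GRM8, had 26.7, 28.1 and 22.7 CPM in iUSB1 +Dox, against 12.5, 13.4 and 11.1 CPM in WT (1.06, SE 0.22, edgeR adjusted p = 0.0062). miR-550a-5p had 15.3, 15.9 and 17.9 CPM in iUSB1 +Dox and 8.79, 9.18 and 8.38 CPM in WT (0.89, SE 0.19, edgeR adjusted p = 0.00913). miR-548ao-3p had 13.2, 11.2 and 9.17 CPM in iUSB1 +Dox and 4.18, 4.75 and 4.88 CPM in WT (1.29, SE 0.25, edgeR adjusted p = 0.00406). In all 3 the groups were well apart. miR-219a-2-3p, a miRNA of the oligodendrocyte lineage, had 20.7, 22.8 and 15.1 CPM in iUSB1 +Dox and 6.4, 8.54 and 11.6 CPM in WT (1.15, SE 0.33, edgeR adjusted p = 0.0413), lost without +Dox library 1 or 2 or WT library 1 or 2 (0.0993 to 0.178), over a range of 0.0123 to 0.178. miR-219a-2-3p averaged 19.5 ± 3.98 CPM in iUSB1 +Dox, 16.5 ± 1.52 CPM in iUSB1 -Dox, 7.14 ± 3.19 CPM in the mutant and 8.84 ± 2.61 CPM in WT (SD, n = 3 each).

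miR-96-5p, of the sensory cluster that also makes miR-182 and miR-183, had 1045, 1182 and 1195 CPM in iUSB1 +Dox, against 585, 751 and 759 CPM in WT, the most abundant of the miRNAs that rose (0.71, SE 0.21, edgeR adjusted p = 0.0467). It was lost without any one of the 6 libraries (0.0714 to 0.156), with RLE scaling, with library totals (0.0726) and with a replicate block (0.0577), over a range of 0.0165 to 0.156. miR-182-5p (0.22) and miR-183-5p (0.16) were not called (edgeR adjusted p = 0.532 and 0.651), and 1 of 6 tested strands of the cluster rose, with a median of 0.37 and, without +Dox library 2, of 0.17. miR-625-3p (0.91, SE 0.23), miR-1285-3p (0.75, SE 0.18), miR-576-3p (0.74, SE 0.20) and miR-641 (0.60, SE 0.17) rose with edgeR adjusted p of 0.0147 to 0.0334. Each of these 4 was lost without +Dox library 2 (0.0912 to 0.222). miR-625-3p was also lost without +Dox library 1 or WT library 1, miR-1285-3p without +Dox library 1 or WT library 3, and miR-576-3p and miR-641 without +Dox library 3 or any WT library and with only these groups, miR-641 also with library totals, and the 4 ranged over 0.000665 to 0.222 across settings. For miR-625-3p the 5p strand changed by 0.83, for miR-1285-3p by 0.74 and for miR-576-3p by 0.18, none of them called (edgeR adjusted p = 0.0692 to 0.635).

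**Figure D4:**
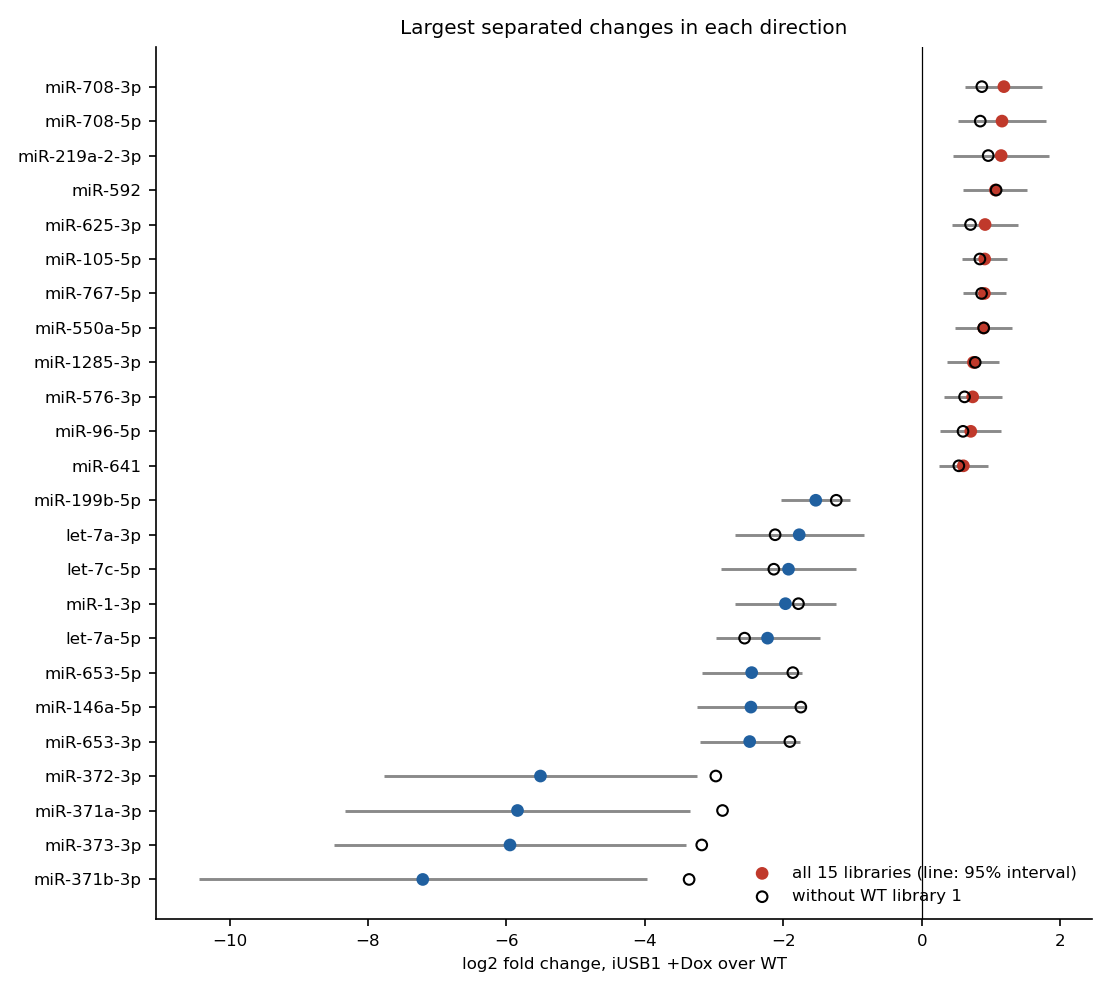
Filled points are the log2 fold change (iUSB1 +Dox over WT) of the 12 largest separated calls in each direction, with mean log2 CPM no lower than 3, lines are 95% intervals, and open points leave out WT library 1. The miR-371-373 strands move to between -3.36 and -2.88 without that library, and let-7a-5p to -2.56.

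Several low miRNAs fell and kept their calls without any one library. miR-2113 had 1.46, 0.983 and 2.4 CPM in iUSB1 +Dox, against 32.4, 7.28 and 8.97 CPM in WT (-3.34, SE 0.59, edgeR adjusted p = 0.00264), with -2.33 without WT library 1. miR-326, in an intron of ARRB1, had 2.3, 0.787 and 1.05 CPM in iUSB1 +Dox and 14.9, 5.88 and 5.03 CPM in WT (-2.61, SE 0.45, edgeR adjusted p = 0.00143), with -1.94 without WT library 1 and -3.22 without +Dox library 1. miR-3943 had 0.836, 1.25 and 1.5 CPM in iUSB1 +Dox and 10.6, 4.62 and 5.1 CPM in WT (-2.52, SE 0.43, edgeR adjusted p = 0.00143). All 3 separated the groups, with WT library 1 the highest. miR-548g-3p, with 44.5, 36.6 and 55.1 CPM in iUSB1 +Dox and 77.3, 102 and 113 CPM in WT (-1.10, SE 0.22, edgeR adjusted p = 0.00443), fell while its 5p strand, at 6.64, 7.54 and 8.56 CPM in iUSB1 +Dox and 2.28, 6.83 and 4.96 CPM in WT, gave 0.70 (edgeR adjusted p = 0.174; 0.0477 without WT library 2, over a range of 0.0477 to 0.456).

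Further lists had 0 calls by edgeR: the miR-17 and miR-92a clusters (5 at an unadjusted p under 0.05, 0 by DESeq2), the 14q32 cluster (1 and 0), miRNAs made without Drosha (0 and 0) and mirtrons (1 and 0). Of 26 tested strands of the miR-17 and miR-92a clusters, which drive proliferation, 25 had log2 changes above 0, with a median of 0.26. In 10 of the 26 all induced libraries lay above all WT libraries, against 15.1% of all 998. miR-363-3p, with 13905, 14510 and 16961 CPM in iUSB1 +Dox and 6204, 11185 and 11162 CPM in WT, separated the groups without being called (0.67, SE 0.22, edgeR adjusted p = 0.076), and it passed with the stricter filter on low counts (0.0305, over a range of 0.0305 to 0.241). Its other arm miR-363-5p was the 1 call in this list without WT library 1 (0.0185, over a range of 0.0185 to 0.327), against 0.11 with all libraries. The 15 tested strands of the imprinted 14q32 cluster had a median of 0.37 at summed levels of 30.8 to 35.2 CPM in iUSB1 +Dox and 22.2 to 29 CPM in WT. miR-320 and miR-484, made without Drosha (6 tested), had a median of -0.02, between -0.11 without +Dox library 2 and 0.12 without +Dox library 3, and mirtrons, made by splicing (11 tested), of 0.11, up to 0.27 without WT library 3. At an unadjusted p under 0.05 there were 232 miRNAs of 998 in the whole comparison, against 82 after adjustment and 115 by DESeq2.

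**Figure D5:**
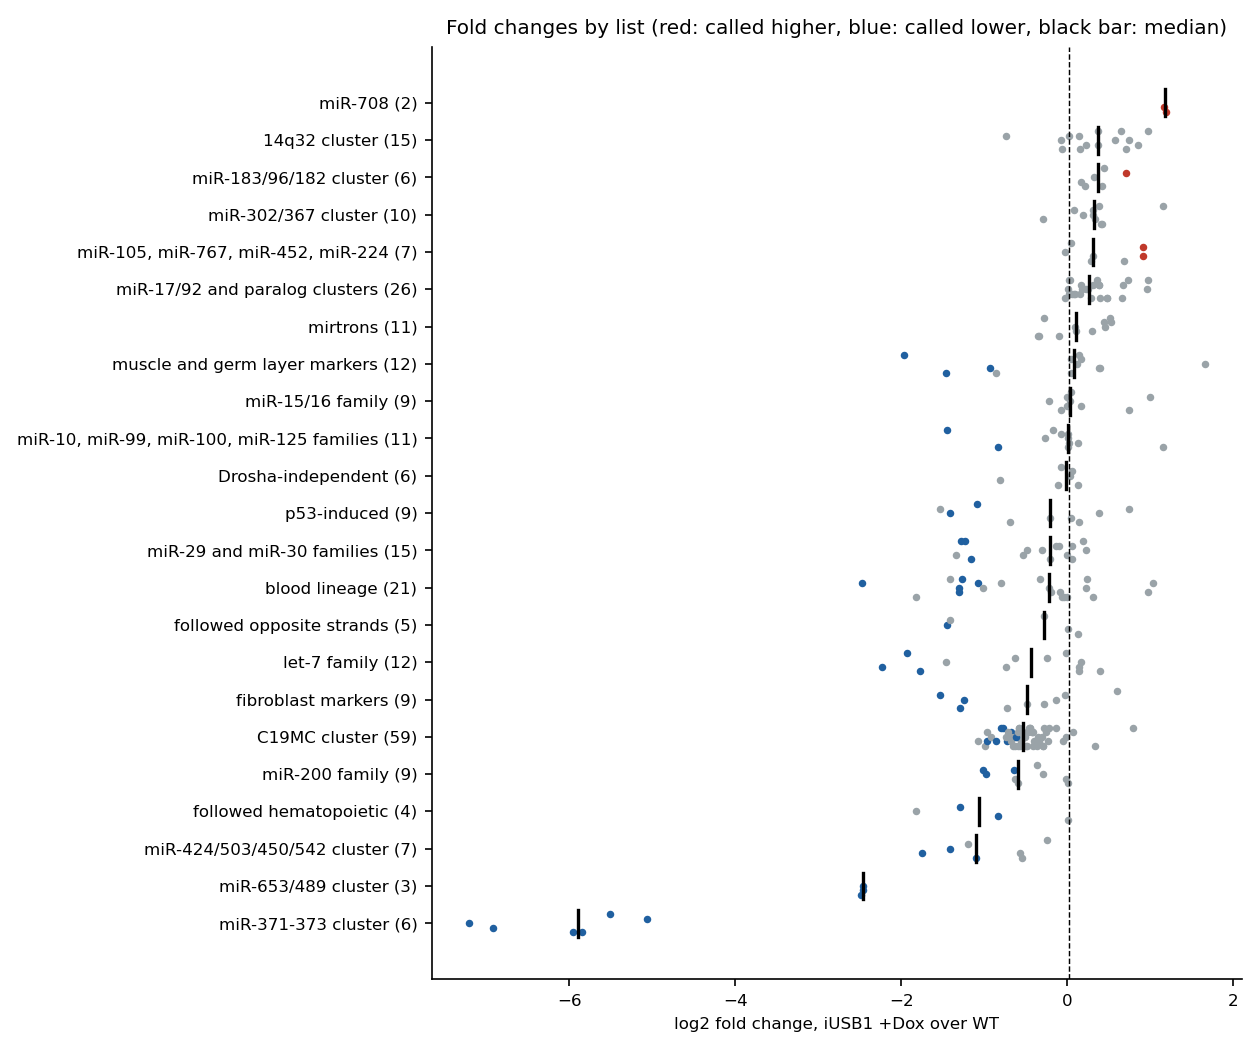
Each point is the log2 fold change (iUSB1 +Dox over WT) of 1 tested miRNA, by list, with the number tested in brackets, the list median as a black bar and the median of all 998 miRNAs, 0.03, as a dashed line. The miR-371-373 list lies lowest, with a median of -5.89, the list of miR-653 with miR-489 next, at -2.46, and miR-708 highest, at 1.17.

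Strands of one hairpin moved alike where both were called. Of 233 hairpins with both arms tested, 36 had at least 1 call. In 10 both arms were called, always in the same direction, and in 20 of the 26 with 1 call the other arm had the same sign. Over all 233 hairpins 75.1% had both arms on the same side of 0. The more abundant arm fell in 21 hairpins (9.01%) and the less abundant one in 11 (4.72%). Abundant miRNAs are called more easily, as the median SE was 0.44 at a mean log2 CPM under 3 and 0.19 over 9. These shares therefore do not compare the arms on equal terms. The median log2 change was -0.05 for the more abundant arms and 0.01 for the others. Among hairpins with 1 call, the arms had opposite signs in miR-193a, miR-520d, miR-548g, miR-767, miR-3529 and miR-4677. miR-3529-5p fell (-1.56, SE 0.39, edgeR adjusted p = 0.0198) at a mean of 5.09 CPM. miR-3529-3p gave 0.67 (edgeR adjusted p = 0.0754) at a mean of 9922 CPM, and it passed with a replicate block. Whether all reads counted for miR-3529-3p come from this hairpin was not tested. The miR-3529-5p call was lost without +Dox library 1 (0.1) or 2 (0.12) or WT library 1 (0.0984), over a range of 0.00176 to 0.12.

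Lengths had a median of 22 nucleotides among miRNAs that rose, miRNAs that fell and all tested. The median GC content was 45.5% among those that rose, 47.8% among those that fell and 50% over all 889 tested miRNAs with a sequence. In order of GC content, 17 fell and 6 rose of the 235 with the lowest GC, 22 fell and 8 rose of the next 259, 12 fell and 2 rose of the next 199, and 3 fell and 2 rose of the 196 with the highest. The last base was A in 3 of 18 that rose, in 12 of 54 that fell and in 18.7% of all, and it was U in 5 of 18, 19 of 54 and 31.8% of all. By last base, the share that fell was 7.23% of miRNAs ending in A, 6.36% in C, 4.49% in G and 6.71% in U. These are reference ends, and tails added to the molecules were not analysed here.

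Against the related lines few or no miRNAs passed the test. Between iUSB1 +Dox and the USB1 mutant edgeR called 0 of 998 miRNAs (0.00%), with 118 at an unadjusted p under 0.05 and a lowest adjusted p of 0.213, and DESeq2 called 9. The 2 of these that were higher in iUSB1 +Dox were miR-219a-2-3p and miR-1301-3p. The 7 that were lower were miR-34b-3p, miR-548g-3p, miR-3943 and the C19MC members miR-519b-3p, miR-520c-3p, miR-524-5p and miR-526a-5p. Between iUSB1 +Dox and iUSB1 -Dox edgeR called 0 of 998 (0.00%), with 45 at an unadjusted p under 0.05 and a lowest adjusted p of 0.355. DESeq2 called 1, miR-3662, and a fit of these 2 groups alone called 3, all lower with Dox: let-7a-5p, miR-371a-3p and miR-3662. miR-3662 had 0.731, 1.31 and 1.58 CPM in iUSB1 +Dox and averaged 4.15 ± 0.601 CPM in iUSB1 -Dox, 2.7 ± 1.73 CPM in the mutant and 3.94 ± 0.454 CPM in WT (SD, n = 3 each). A p that misses the threshold does not show that the induced cells equal these lines, and the 3 comparisons share the +Dox libraries.

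Of the 1474 members, 476 were not tested: 223 were not listed in all 5 hESC tables, and 253 did not pass the filter on low counts. They held 0.00811 to 0.0133% of the counts of a library, 375 of them had fewer than 10 counts in every library, and the highest count of any was 48. That was miR-1269a, with 1, 1 and 2 counts in iUSB1 +Dox and 48, 6 and 6 in WT libraries 1, 2 and 3. A fit of the 6 libraries alone tested 897 miRNAs, none of them outside the 998.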

How the data were processed

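Small RNA of H1 hESCs was prepared from Trizol-extracted total RNA with a Lexogen small RNA library kit. The authors trimmed reads with cutadapt 2.5, aligned them to human miRBase entries with Bowtie2 2.2.9 and counted with SAMtools 1.3.1. What the authors deposited are whole counts for each mature miRNA without normalisation, in 1 column per library. A table holds only those miRNAs whose first column is above 0, so a miRNA missing from a table has no count in library 1 and an unknown count in libraries 2 and 3. Of 1880 miRNAs listed for either group, 192 were only in the iUSB1 +Dox table and 214 only in the WT table. 16 adaptor entries were removed, and 0 columns were left out. Tables of K562 cells were not used here.

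All 15 hESC libraries (5 groups of 3) were fitted with edgeR 4.0.16 quasi-likelihood (TMM scaling, robust, no replicate term) in R 4.3.3, over the 1251 miRNAs listed in all 5 tables of which filterByExpr (minimum count 10, minimum total 15) left 998. Calls had a Benjamini-Hochberg adjusted p under 0.05 over all 998. The biological coefficient of variation was 0.283. Alternatives were DESeq2 1.42.0, RLE scaling, library totals, no filter, a filter of 10 CPM in 3 libraries, only the 2 groups compared, a replicate block, and leaving out each library. The main fit was also run on simulated counts with known changes. No library was set apart in that simulation, so it does not test how WT library 1 affects the calls.

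Deviations of same-numbered +Dox and WT libraries from their group means correlated at 0.337, 0.130 and 0.215 for libraries 1, 2 and 3 (418 miRNAs at a mean log2 CPM of 3 or more). Differently numbered libraries also correlated, +Dox library 2 with WT library 3 at 0.171 and +Dox library 3 with WT library 2 at 0.176. The values therefore do not settle whether the numbers pair these libraries, and the labels do not say. The main fit held no replicate term, and a replicate block was run as an alternative. Same-numbered libraries gave -0.02 to 0.187 for +Dox with -Dox and 0.021 to 0.181 for +Dox with the mutant.

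Named miRNAs were the 12 largest separated calls in each direction at a mean log2 CPM of 3 or more, their other arms, the study's 5 blood miRNAs and opposite strands, up to 4 abundant members of each of 23 lists and the 5 most abundant miRNAs. Others named were chosen after their values were seen. Members and lists were chosen with earlier results of these data known. Arms were ranked by mean CPM. Positions are from RefSeq GRCh38.p14 and host genes from GENCODE 44. 95% intervals are from the fit.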

Additional observations from a re-analysis of the deposited data

Results flagged for a closer look

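Signals in miRNAs outside the comparison were found in 2 cases, because the miRNA had a median of at least 10 counts and more than 3 counts in every iUSB1 +Dox library and was absent from the WT table. miR-4482-5p had 10 counts in each +Dox library, a median of 10, and 0 in WT library 1. miR-5579-5p, the other arm of the miR-5579-3p that rose, had 48, 20 and 12 counts in +Dox libraries 1, 2 and 3, a median of 20, and 0 in WT library 1. Their counts in WT libraries 2 and 3 are unknown, so the difference was not tested.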

How the results depend on the processing

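Between iUSB1 +Dox and WT, 82 calls became 83 with a replicate block, 115 with DESeq2, 82 with RLE scaling, 71 with library totals, 77 without a filter, 65 with the CPM filter and 69 with only these groups, and 25 to 61 when 1 library was left out. Every called miRNA kept its sign wherever it was tested. The replicate block kept 73 of the 82 calls, lost 9 and gained 10, and gave 0 calls against the USB1 mutant and 0 against iUSB1 -Dox. It changed no other call. Against the mutant DESeq2 gave 9 calls, and against iUSB1 -Dox it gave 1 and only these groups gave 3. The causes were not tested. DESeq2 gave no adjusted p for 7 of the 82 and called the other 75. miR-100-5p, at 0.01, gave -0.0056 with DESeq2 and -0.0057 with RLE scaling. Leaving out 1 library, uncalled changes crossed 0 for miR-100-5p (-0.25 to 0.17), let-7f-5p (-0.47 to 0.034), miR-125a-5p (-0.071 to 0.13), miR-125b-1-3p (-0.18 to 0.15), miR-143-3p (-0.027 to 0.99), miR-199a-5p (-0.94 to 0.17), miR-148a-3p (-0.23 to 0.028), miR-30c-5p (-0.060 to 0.11) and miR-767-3p (-0.15 to 0.040). The 3 libraries of a group and the distance of WT library 1 from the other WT libraries limit these comparisons.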

Other observations

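Of miRNAs listed for 1 of the groups only, miR-372-5p, the other arm of miR-372-3p, had 651, 20 and 5 counts in WT libraries 1, 2 and 3 and 0 in iUSB1 +Dox library 1, and miR-4435 had 20, 15 and 10 counts in WT and 0 in iUSB1 +Dox library 1. miR-675-3p, from the imprinted H19 RNA, had 56, 19 and 2 counts in iUSB1 +Dox and 0 in WT library 1, and miR-101-2-5p had 3, 16 and 27 counts in iUSB1 +Dox and 0 in WT library 1. Counts in the other libraries of the group without a listing are unknown.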
